A study of Triticum aestivum with 18 samples.

Results

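The genes described here are the 20 wheat genes that the deposited table names as CBFs (C-repeat binding factors), of 134610 genes in all. A gene was taken as a member where its identifier begins with TraesCS and its description holds a name that starts with CBFI, so that the numbered CBF subgroups I to IV are covered, and this name rule used no measured value. RNA was sequenced from roots and leaves (the third leaf) of seedlings of the NaCl-tolerant wheat variety Jimai 22, collected at 4 days of treatment, and each of the 3 libraries of a group pooled 10 organs. The root groups were 5 mM 3-MA + 150 mM NaCl (TMG), 150 mM NaCl (TG) and untreated control (CG), and the leaf groups were the same treatments, TMY, TY and CY. 3-MA (3-methyladenine) inhibits phosphatidylinositol 3-kinase and so stops autophagosomes from forming, and seedlings received it 5 h ahead of the salt. A group with 3-MA and no NaCl is not among the 6, so each 3-MA change was measured under NaCl. The question of the study was how wheat seedlings respond to NaCl and how that response shifts when autophagy is blocked.

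CBF proteins carry an AP2 DNA-binding domain and bind the C-repeat or dehydration-responsive element in the promoters of cold-regulated genes, among them genes for dehydrins and other protective proteins. They are known from the cold response of Arabidopsis and of cereals, where a bHLH protein of the ICE type raises their transcription at low temperature. Cereals hold many more CBF genes than Arabidopsis, sorted by sequence into subgroups, and in wheat and barley a cluster of them lies at a frost resistance locus on the group 5 chromosomes. Some CBF and related DREB genes are also known to respond to drought and salt.

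All 20 genes were protein coding and stood in the AP2 family of the table, which lists 540 AP2 genes. They comprised 1 gene of subgroup Ia, 2 of subgroup II, 3 each of IIIa, IIIc and IIId, 2 of IVa, and 3 each of IVb and IVd. Of the 20, 17 lay on the group 5 chromosomes, 3 of them on 5A within 1393 kb, 6 on 5B within 1148 kb and 8 on 5D within 1355 kb. The other 3 were CBFIa-A11 on 2A, CBFII-5.3 on 4A and CBFII-5.2 on 7D. On 5A and 5D the IV genes came first and the IIIa and IIIc genes last along the chromosome, and on 5B CBFIVb-21.1 came first and CBFIIIa-6.1 last. The name of a gene does not always give its subgenome, since CBFIIId-A15 lay on 5B. Gene lengths ran between 896 and 1219 bp, no other gene of the table overlapped a member, and CBFIIIc-3.1 was described as a fragment. Copies of 1 subgroup on 5A, 5B and 5D are close relatives, and how reads that match several of them were assigned is not given in the sources used here, so values for single copies are less certain than sums over a subgroup.

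**Figure D1:**
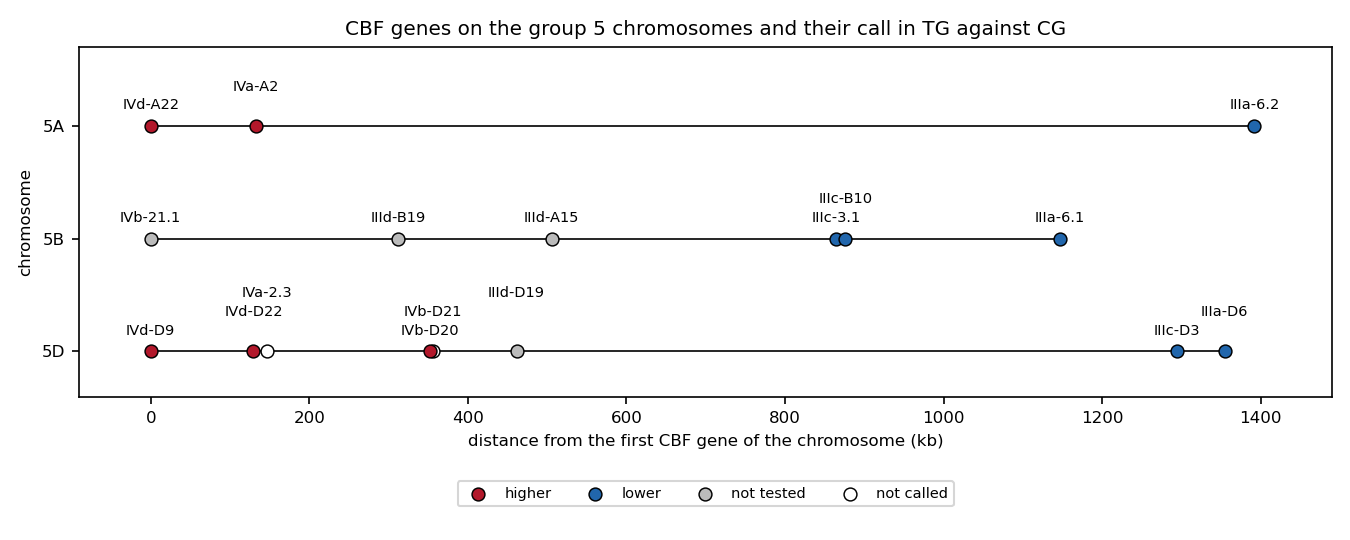
Position of the 17 CBF genes on chromosomes 5A, 5B and 5D, as distance in kb from the first CBF gene of each chromosome (names without the prefix CBF). Colours give the edgeR call in NaCl-treated roots against control roots (TG over CG); the called IV genes were higher and lie at the left, and the called IIIa and IIIc genes were lower and lie at the right.

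Library totals ran between 27156078 and 33150906 counts. Levels are CPM, the counts of a gene scaled to a common library size with TMM factors over the 18 libraries. These factors were lowest in control leaves (0.607 to 0.746) and 0.865 to 1.27 elsewhere. Chlorophyll a-b binding protein genes (98 genes), which mark green leaf tissue, summed to 22.5 to 426 CPM (library size only) in roots and to 8325 to 57102 in leaves. They also moved with treatment, at 22.5 to 30.5 in TMG, 74.6 to 126 in TG and 279 to 426 in CG, and at 8325 to 13847 in TMY, 18102 to 21218 in TY and 35499 to 57102 in CY. The root list went against its name, since its 14 nicotianamine synthase genes were lower in roots (11.6 to 57.4 CPM) than in leaves (86.3 to 275 CPM), while the high-affinity nitrate transporter accessory gene had 4.55 to 22.0 CPM in roots and was at 0 in every leaf library. The 1 Casparian strip membrane protein gene had 0.183 to 0.714 CPM in roots and 0 to 0.639 CPM in leaves. The part of tissue state in the CBF values was not tested, and in whole roots or leaves fewer cells of a type and less RNA per cell cannot be told apart. Replicate 1 stood apart within both NaCl groups: the 3 IIIa genes together had 81.6, 25.5 and 13.03 CPM in TG replicates 1 to 3, and 389, 199.8 and 165.4 CPM in TY replicates 1 to 3. The totals of these replicates, 31890482 counts in TG and 30555526 in TY, lay within the range of the others, so results that rest on them are given with and without them. Both were singled out by CBF values. Leaving them out makes the NaCl falls of the genes highest in them larger by that choice alone.

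Over the 18 libraries the members spanned a wide range of levels per kb of gene length, between 86.5 CPM per kb for CBFIIIa-6.2 and 0.233 CPM per kb for CBFIIId-B19. Of the 20, 19 reached a mean of 1 CPM in at least 1 group, and CBFIIId-B19 did not. In control roots (CG) the highest was CBFIIIa-6.2 with 100.2 ± 9.49 CPM per kb (SD, n = 3), then CBFIIIa-6.1 with 60.8 ± 7.98, and their libraries did not overlap. Places 3 to 8 in CG, between 31.9 and 20.5 CPM per kb, belonged to CBFII-5.3, CBFIIIc-B10, CBFIIIc-3.1, CBFIIIa-D6, CBFIIIc-D3 and CBFII-5.2, and each of these neighbours overlapped the next. The IVd genes and CBFIa-A11 followed at 10.4 to 3.77 CPM per kb, and the IVa, IVb and IIId genes were all below 1. In control leaves (CY) CBFIIIa-6.2 was again first with 175 ± 30.8 CPM per kb, above CBFIIIa-6.1 (86.5 ± 10.9), CBFIVd-A22 (77.1 ± 40.4) and CBFIIIa-D6 (71.7 ± 1.13), whose ranges overlapped from each to the next. The II genes, high in control roots, were at 1.38 and 0.876 CPM per kb there. Of the 19 pairs of neighbours in each order, 15 overlapped in CG and 15 in CY.

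**Figure D2:**
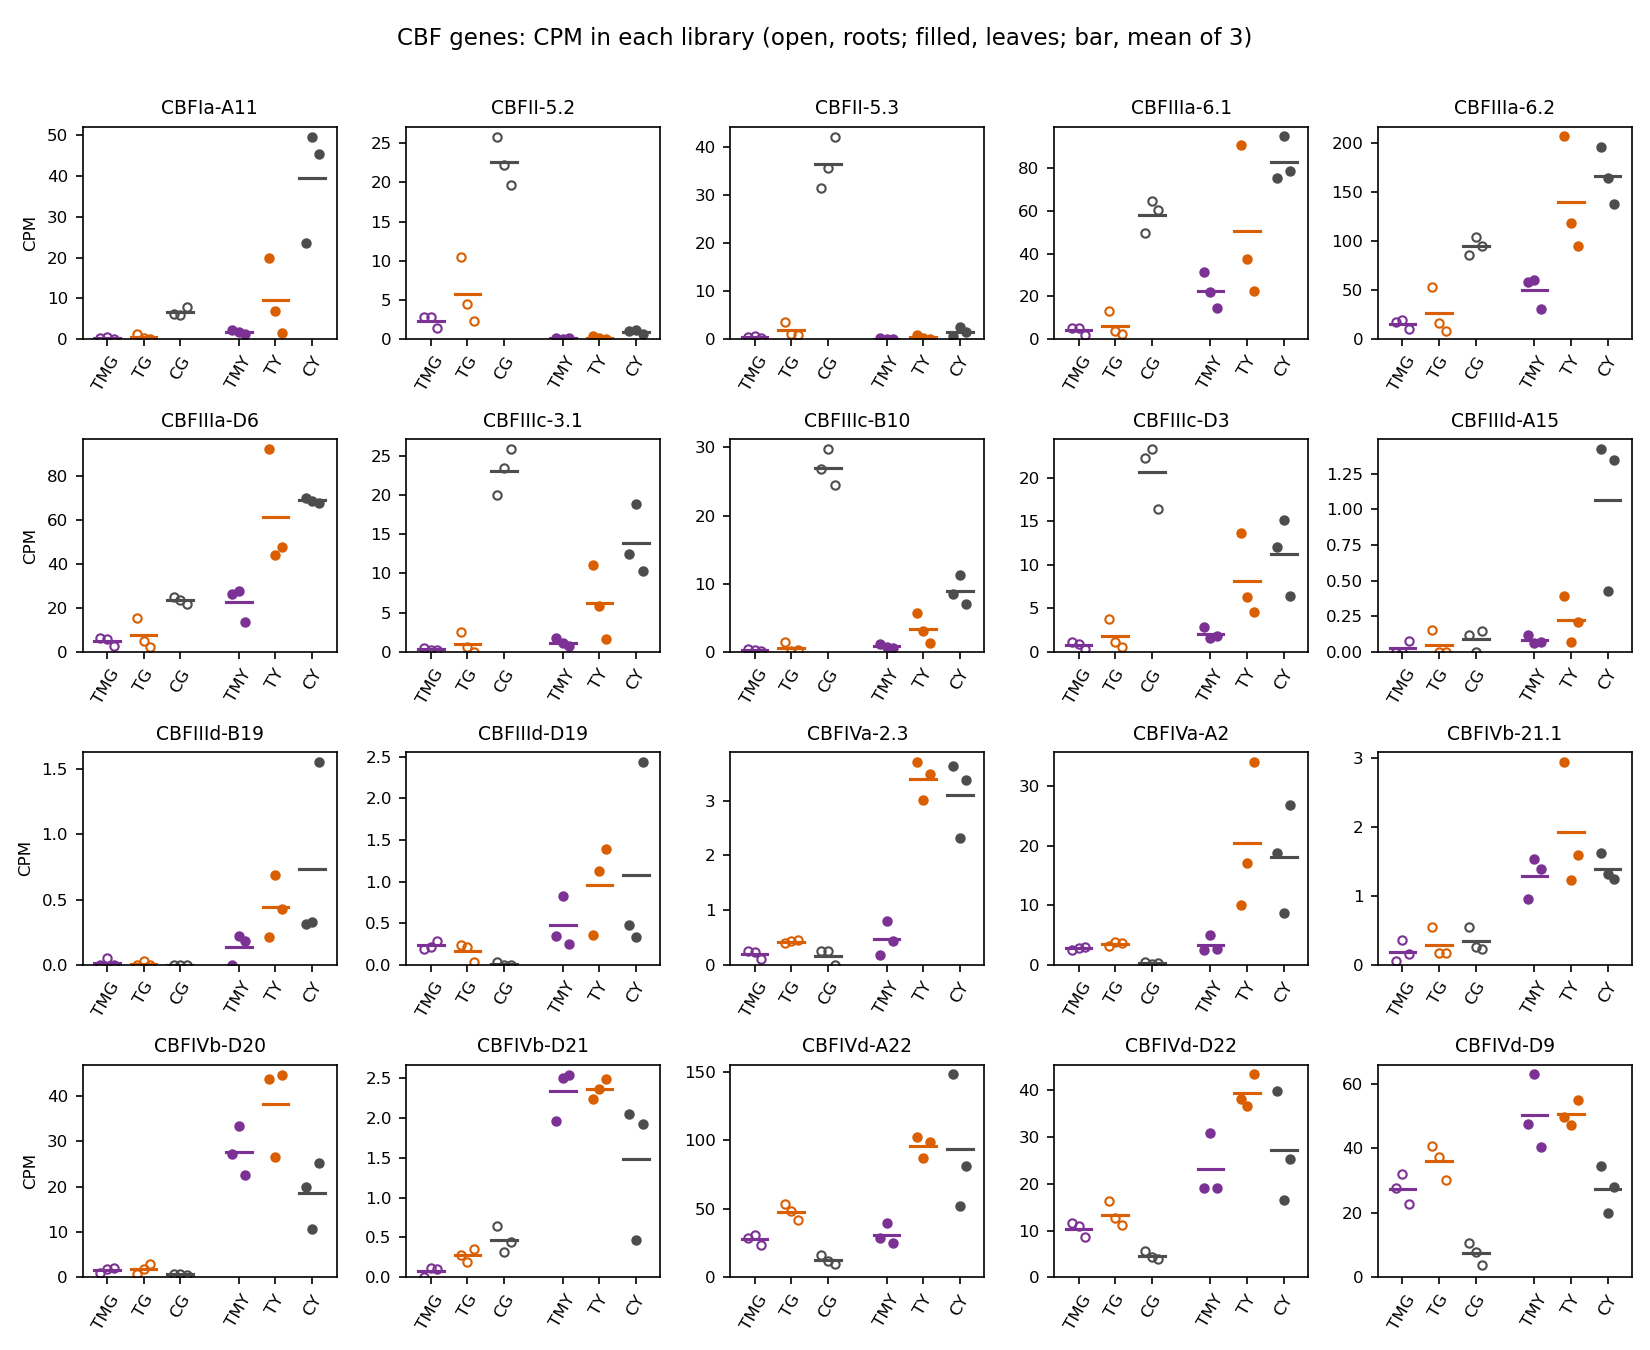
CPM of each CBF gene in each library (y axes start at 0 and differ between panels; open points, roots; filled points, leaves; bars, means of 3 libraries). The II and IIIc genes stand highest in CG, the IVd genes stand higher in TMG and TG than in CG, and the first of the 3 points in TG and in TY is the highest for every Ia, II, IIIa and IIIc gene.

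NaCl split the family in roots. Of the 20 genes, 16 passed the filter on low counts in TG against CG, 5 were called higher, 9 lower and 2 not called, at an adjusted p of 0.05 or less by edgeR's quasi-likelihood test, where 35.6% of 73066 tested genes were called (18.5% higher, 17.1% lower). The 5 higher genes were all of subgroup IV, namely the 3 IVd genes, CBFIVa-A2 and CBFIVb-D20. The 9 lower genes were every Ia, II, IIIa and IIIc gene. The median log2 fold change was -1.71 over the 16 members and 0.03 over all genes tested.

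CBFIVd-A22 (TraesCS5A02G310500, 5A, 522223637 to 522224855) had 53.5, 48.7 and 41.6 CPM in TG, against 16.6, 11.8 and 9.65 CPM in CG (replicates 1 to 3, here and throughout). Chromosome, start and end in brackets are those of the deposited table, which the study's methods place on the IWGSC assembly of the wheat variety Chinese Spring. Every TG library was above every CG library, and the gene rose by a log2 fold change of 1.94 (standard error 0.21, edgeR adjusted p = 0.000431). Its relative on 5D, CBFIVd-D9 (TraesCS5D02G317100, 5D, 410490700 to 410491759), had 40.8, 37.4 and 30.2 CPM in TG, against 10.6, 7.90 and 3.85 CPM in CG, a log2 fold change of 2.30 ± 0.32 (standard error, edgeR adjusted p = 0.00121). CBFIVd-D22 (TraesCS5D02G317400, 5D, 410620236 to 410621446) rose less, with 16.3, 12.7 and 11.1 CPM in TG, against 5.55, 4.29 and 3.85 CPM in CG (log2 fold change 1.58 ± 0.21, edgeR adjusted p = 0.000881). For all 3 IVd genes the groups were apart, and the calls held whichever library was left out. The share of all tested genes with groups apart was not counted. Here and throughout, groups that lie apart describe the single gene and do not set it off from other genes. Summed, the IVd genes had 97.4 ± 13.9 CPM in TG and 24.7 ± 7.72 CPM in CG (SD, n = 3).

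The largest rise was that of a low gene. CBFIVa-A2 (TraesCS5A02G310600, 5A, 522356755 to 522357704), which lies next to CBFIVd-A22 on 5A, had 3.11, 3.77 and 3.59 CPM in TG, against 0.396, 0.179 and 0.224 CPM in CG (log2 fold change 3.69 ± 0.33, edgeR adjusted p = 0.000178), a 12.9-fold difference between groups that did not overlap. CBFIVa-2.3 (TraesCS5D02G317500, 5D, 410637378 to 410638322) on 5D stayed low, with 0.388, 0.437 and 0.445 CPM in TG, against 0.244, 0.250 and 0 CPM in CG, and its log2 fold change of 1.34 ± 0.73 did not pass (edgeR adjusted p = 0.187). Of the IVb genes, CBFIVb-D20 (TraesCS5D02G317700, 5D, 410842386 to 410843365) had 0.802, 1.94 and 2.92 CPM in TG, against 0.793, 0.786 and 0.524 CPM in CG. Its lowest TG library was barely above the highest CG library, and its call (log2 fold change 1.44 ± 0.47, edgeR adjusted p = 0.044) was lost without any 1 of CG replicates 1, 2 and 3 or TG replicates 2 and 3, at an edgeR adjusted p of up to 0.149, and with limma on log2(FPKM + 1) (adjusted p = 0.0945). CBFIVb-D21 (TraesCS5D02G317800, 5D, 410846205 to 410847270), 2.84 kb away from it, had 0.285, 0.191 and 0.362 CPM in TG and 0.640, 0.322 and 0.449 CPM in CG and was not called (edgeR adjusted p = 0.259). CBFIVb-21.1 (TraesCS5B02G311600, 5B, 493168269 to 493169247) on 5B did not pass the filter, with 0.543, 0.164 and 0.167 CPM in TG and 0.549, 0.250 and 0.224 CPM in CG.

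Among the genes that fell in NaCl-treated roots, both of those with the largest log2 fold changes were IIIc genes. CBFIIIc-B10 (TraesCS5B02G312800, 5B, 494044571 to 494045570) had 1.40, 0.191 and 0.278 CPM in TG, against 26.9, 29.7 and 24.5 CPM in CG, a level 41.7-fold lower in TG. CBFIIIc-3.1 (TraesCS5B02G312700, 5B, 494032899 to 494033794), 10.8 kb from it on 5B, had 2.59, 0.602 and 0.0278 CPM in TG, against 20.0, 23.4 and 25.8 CPM in CG (log2 fold change -4.37 ± 0.78, edgeR adjusted p = 0.00356). CBFIIIc-D3 (TraesCS5D02G318799, 5D, 411784722 to 411785684) had 3.804, 1.12 and 0.585 CPM in TG, against 22.4, 23.3 and 16.4 CPM in CG (log2 fold change -3.45 ± 0.56, edgeR adjusted p = 0.00225). The groups were apart for all 3 genes, and TG replicate 1 was the highest TG library of each.

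Both II genes and CBFIa-A11 (TraesCS2A02G399500, 2A, 652570186 to 652571095) fell as well. CBFII-5.3 (TraesCS4A02G433200, 4A, 703931982 to 703933123) had 3.57, 1.09 and 0.807 CPM in TG, against 31.5, 35.7 and 42.1 CPM in CG (log2 fold change -4.28 ± 0.49, edgeR adjusted p = 0.00052). CBFII-5.2 (TraesCS7D02G052400, 7D, 27453025 to 27454128) had 10.4, 4.46 and 2.34 CPM in TG, against 25.8, 22.3 and 19.6 CPM in CG (log2 fold change -1.94 ± 0.45, edgeR adjusted p = 0.0114). CBFIa-A11 had 1.35, 0.246 and 0.139 CPM in TG, against 6.098, 6.04 and 7.82 CPM in CG (log2 fold change -3.47 ± 0.62, edgeR adjusted p = 0.00362). In each case the groups were apart and TG replicate 1 was the TG library nearest to the controls.

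The IIIa genes, among them both of the most abundant members in control roots, fell as well. CBFIIIa-6.1 (TraesCS5B02G313000, 5B, 494315159 to 494316116) had 12.9, 3.64 and 2.25 CPM in TG, against 49.8, 64.7 and 60.2 CPM in CG (log2 fold change -3.18 ± 0.57, edgeR adjusted p = 0.00366). CBFIIIa-6.2 (TraesCS5A02G312000, 5A, 523615616 to 523616562) had 53.4, 16.9 and 8.32 CPM in TG, against 85.9, 104 and 94.8 CPM in CG (log2 fold change -1.82 ± 0.57, edgeR adjusted p = 0.0361). CBFIIIa-D6 (TraesCS5D02G318900, 5D, 411845139 to 411846097) had 15.3, 4.92 and 2.45 CPM in TG, against 24.9, 23.6 and 21.6 CPM in CG (log2 fold change -1.60 ± 0.54, edgeR adjusted p = 0.0494). The groups did not overlap for any of them, but the calls of CBFIIIa-6.2 and CBFIIIa-D6 were close to the threshold. CBFIIIa-6.2 lost its call without any 1 of the 3 CG libraries or TG replicate 2 (edgeR adjusted p up to 0.118), and CBFIIIa-D6 without any 1 of the CG libraries or TG replicates 2 and 3 (edgeR adjusted p up to 0.15). The call of CBFIIIa-D6 was also lost with DESeq2 (adjusted p = 0.0777) and with library size only (edgeR adjusted p = 0.0649). Without TG replicate 1 the 9 falling genes were all still called, with larger changes: log2 fold changes were then -2.89 for CBFIIIa-6.2, -2.64 for CBFIIIa-D6, -4.28 for CBFIIIa-6.1, -6.15 for CBFIIIc-3.1, -6.80 for CBFIIIc-B10, -4.57 for CBFIIIc-D3, -5.23 for CBFII-5.3, -2.71 for CBFII-5.2 and -5.05 for CBFIa-A11. TG replicate 1 was the highest TG library of all 9, so larger falls without it follow from that choice and add no support.

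**Figure D3:**
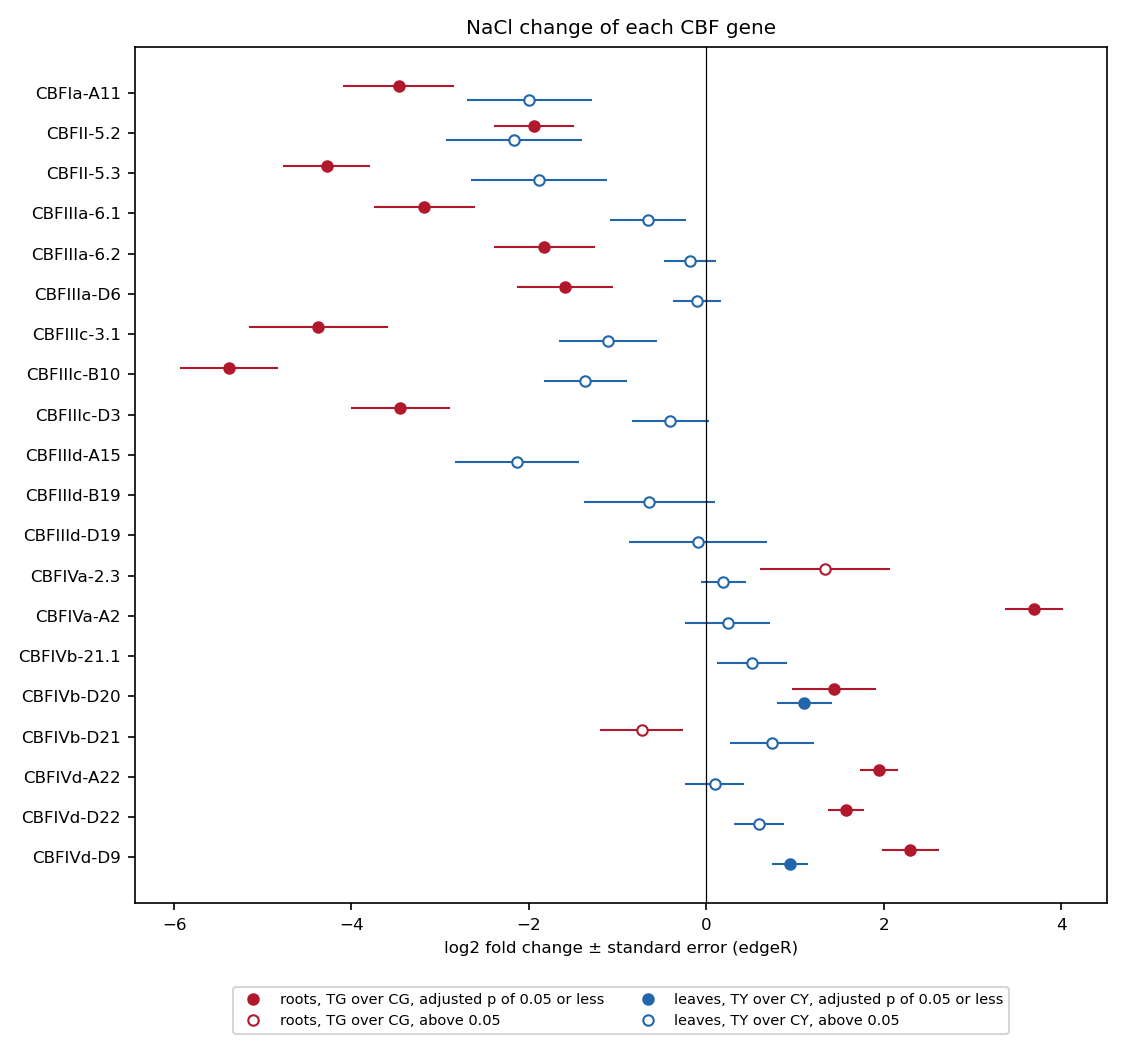
Log2 fold change of each CBF gene with NaCl in roots (TG over CG, red, upper of each pair) and in leaves (TY over CY, blue), with the standard error of the edgeR fit; filled points passed an adjusted p of 0.05. In roots the Ia, II, IIIa and IIIc genes lie left of 0 and the called IV genes right of it; in leaves 2 genes were called, CBFIVb-D20 and CBFIVd-D9. A gene without a red point did not pass the filter on low counts in roots.

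In leaves the same treatment moved 2 members past the test. All 20 genes passed the filter in TY against CY, 2 were called higher and none lower, where 23.3% of 62945 genes were called. The median log2 fold change was -0.15 over the members and 0.02 over all genes. By edgeR, 7 of the 20 members had an unadjusted p under 0.05, where 23636 of 62945 genes did. They were the 2 called genes and 5 more, these 5 with a negative change. DESeq2 called 2 genes lower, CBFIIIc-B10 and CBFIIId-A15, where it called 19% of all genes.

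CBFIVd-D9 had 49.9, 47.3 and 55.0 CPM in TY, against 34.5, 20.0 and 28.0 CPM in CY. Its groups did not overlap and it rose by a log2 fold change of 0.94 ± 0.20 (edgeR adjusted p = 0.0132). CBFIVb-D20, which had been near 1 CPM in roots, had 43.7, 26.5 and 44.7 CPM in TY, against 19.8, 10.7 and 25.3 CPM in CY (log2 fold change 1.11 ± 0.31, edgeR adjusted p = 0.0353). That call was lost without any 1 of CY replicates 1 and 2 and TY replicates 1 and 3, at an edgeR adjusted p of up to 0.104, and with limma on log2(FPKM + 1) (adjusted p = 0.0697). The other IV genes did not pass: CBFIVd-A22 had 102, 87.5 and 99.0 CPM in TY, against 148, 52.1 and 81.6 CPM in CY, where CY replicate 1 was the highest of all 18 libraries. CBFIVd-D22 had 38.02, 36.5 and 43.4 CPM in TY, against 39.8, 16.5 and 25.2 CPM in CY (edgeR adjusted p = 0.163). CBFIVa-A2 had 10.1, 17.1 and 34.1 CPM in TY, against 18.7, 8.69 and 26.9 CPM in CY, and the libraries of both groups were mixed in order. CBFIVa-2.3 had 3.70, 3.00 and 3.48 CPM in TY, against 3.63, 2.32 and 3.37 CPM in CY. CBFIVb-D21 had 2.23, 2.35 and 2.49 CPM in TY and 2.05, 0.472 and 1.92 CPM in CY, and CBFIVb-21.1 had 2.95, 1.23 and 1.60 CPM in TY and 1.63, 1.32 and 1.24 CPM in CY. Neither of these IVb genes was called, although the groups of CBFIVb-D21 were apart.

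For the subgroups that fell in roots, the leaf values depended on TY replicate 1. CBFIa-A11 had 19.9, 7.02 and 1.60 CPM in TY, against 23.7, 49.7 and 45.4 CPM in CY (log2 fold change -1.996 ± 0.70, edgeR adjusted p = 0.0717). CBFIIIc-B10 had 5.75, 3.00 and 1.24 CPM in TY, against 8.47, 11.3 and 6.997 CPM in CY (log2 fold change -1.36 ± 0.47, edgeR adjusted p = 0.0659). In both genes every TY library was under every CY library, yet neither passed in the edgeR fit above. Without the filter on low counts both were called lower (edgeR adjusted p = 0.0455 for CBFIa-A11 and 0.0465 for CBFIIIc-B10). DESeq2 called CBFIIIc-B10 lower as well (-1.38, adjusted p = 0.0193). CBFIIIc-3.1 had 11.1, 5.86 and 1.63 CPM in TY, against 12.5, 18.9 and 10.3 CPM in CY, and CBFIIIc-D3 had 13.7, 6.34 and 4.58 CPM in TY, against 12.1, 15.2 and 6.48 CPM in CY. Both had overlapping groups. CBFIIIa-6.1 had 90.8, 37.6 and 22.7 CPM in TY, against 75.2, 94.7 and 78.6 CPM in CY. CBFIIIa-6.2 had 206, 118 and 94.96 CPM in TY, against 195, 164 and 137 CPM in CY. CBFIIIa-D6 had 92.0, 44.0 and 47.7 CPM in TY, against 69.9, 68.5 and 67.8 CPM in CY. For the IIIa genes TY replicate 1 was within or above the range of the controls while the other TY libraries were below them. The II genes were low in leaves, with 0.468, 0.109 and 0.0355 CPM in TY and 1.00, 1.23 and 0.674 CPM in CY for CBFII-5.2, and with 0.827, 0.326 and 0.0710 CPM in TY and 0.684, 2.50 and 1.55 CPM in CY for CBFII-5.3. Without TY replicate 1, 4 genes were called lower in leaves: CBFIa-A11 (log2 fold change -3.14, edgeR adjusted p = 0.0198), CBFII-5.2 (-3.60, 0.0281), CBFIIIc-B10 (-2.01, 0.0228) and CBFIIIa-6.1 (-1.40, 0.0181). CBFIVd-D9 was then the only member called higher, where 13% of all genes were called in either direction. TY replicate 1 was the highest TY library of each of the 4 lower genes, so larger falls without it follow from its choice.

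The difference between the tissues was tested as an interaction term, (TG - CG) - (TY - CY), on 12 libraries. Of the 20 members, 2 were called higher in this difference and 2 lower, where 11.1% of 79339 genes were called, and the median was -0.27 over the members and -0.04 over all genes. CBFIVa-A2 had the largest positive difference that passed, 3.42 ± 0.73 (log2, edgeR adjusted p = 0.0105), with a log2 fold change of 3.69 in roots and 0.24 in leaves. CBFIVd-A22 differed by 1.83 ± 0.44 (edgeR adjusted p = 0.0191), with 1.94 in roots and 0.09 in leaves. CBFIIIc-B10 differed by -4.04 ± 0.80 (edgeR adjusted p = 0.00749), with -5.38 in roots and -1.36 in leaves, and CBFIIIc-D3 by -3.07 ± 0.79 (edgeR adjusted p = 0.0256), with -3.45 in roots and -0.40 in leaves. The differences of CBFIVa-A2 and CBFIIIc-B10 stayed called whichever of the 12 libraries was left out, while that of CBFIVa-A2 was lost with limma on log2(FPKM + 1) (adjusted p = 0.0548). That of CBFIVd-A22 was lost without CG replicate 2 or CG replicate 3 (edgeR adjusted p up to 0.0553), and that of CBFIIIc-D3 without any 1 of CG replicates 1 and 2, CY replicates 1 and 3, TG replicate 2 and TY replicate 1 (up to 0.0689). Without TG replicate 1, 7 members were called with a lower change in roots than in leaves, where 10.3% of all genes were called. They were the 3 IIIa genes, the 3 IIIc genes and CBFII-5.3. Leaving out TG replicate 1, the highest TG library of each, moves their differences down by the choice alone. Without TY replicate 1 only CBFIIIc-B10 was called lower (-3.34, edgeR adjusted p = 0.0207), where 8.06% of all genes were called. The differences of the IIIa genes were then -1.75 to -1.04 and that of CBFII-5.3 was -1.32, none of them called. TY replicate 1 was the highest TY library of these genes, so its removal moves their differences up by the same kind of choice. The difference of CBFIIIa-6.1 did not pass in the edgeR fit above and was called with DESeq2 (-2.50, adjusted p = 0.0141), as it was with library size only, all 6 groups in one fit and limma. That of CBFIIIc-3.1 was called with all 6 groups in one fit (-3.24, edgeR adjusted p = 0.0384) and with limma, and that of CBFIVd-D9 with DESeq2 (1.39, adjusted p = 0.0151), among others. For the members not named here an effect called in roots and not in leaves was not shown to differ between the tissues with all 12 libraries and the edgeR fit above.

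Adding 3-MA under NaCl moved 1 member past the test in roots. Of 14 members that passed the filter in TMG against TG, 1 was called lower and none higher, where 20.2% of 73651 genes were called. By edgeR, 5 of the 14 had an unadjusted p under 0.05, all negative, where 25488 of 73651 genes did. DESeq2 called 3 lower, CBFIVd-A22, CBFII-5.3 (adjusted p = 0.0179) and CBFII-5.2 (adjusted p = 0.042), where it called 17.2% of all genes. CBFIVd-A22 had 29.1, 31.1 and 23.5 CPM in TMG, against 53.5, 48.7 and 41.6 CPM in TG, so that every TMG library was below every TG library (log2 fold change -0.78 ± 0.14, edgeR adjusted p = 0.00694). This call held whichever library was left out and was lost with all 6 groups in one fit (edgeR adjusted p = 0.0947). The other IVd genes had lower means that did not pass, CBFIVd-D9 with 27.8, 32.1 and 22.7 CPM in TMG (edgeR adjusted p = 0.117) and CBFIVd-D22 with 11.5, 10.9 and 8.65 CPM in TMG (edgeR adjusted p = 0.162). Their TMG and TG libraries overlapped. CBFIVa-A2 did not pass, with 2.53, 2.79 and 3.04 CPM in TMG (log2 fold change to TG -0.33 ± 0.17, edgeR adjusted p = 0.21), CBFIVa-2.3 had 0.245, 0.238 and 0.106 CPM, and CBFIVb-D20 had 1.06, 1.95 and 1.98 CPM. CBFIVb-D21 had 0, 0.119 and 0.106 CPM and CBFIVb-21.1 had 0.0545, 0.357 and 0.159 CPM in TMG, and neither was tested.

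The genes that were lower in TG than in CG were also low in TMG. CBFIIIa-6.2 had 17.03, 19.0 and 10.2 CPM, CBFIIIa-6.1 had 5.39, 5.19 and 1.77 CPM, and CBFIIIa-D6 had 6.32, 6.05 and 2.88 CPM in TMG. For these 3 genes the TMG libraries lay inside the range of the TG libraries or just below it. The IIIc genes were at 0.436, 0.357 and 0.106 CPM (CBFIIIc-B10), 0.545, 0.286 and 0.238 CPM (CBFIIIc-3.1) and 1.20, 0.905 and 0.317 CPM (CBFIIIc-D3) in TMG. CBFII-5.2 had 2.83, 2.79 and 1.37 CPM, CBFII-5.3 had 0.490, 0.715 and 0.317 CPM, and CBFIa-A11 had 0.218, 0.596 and 0.106 CPM in TMG. Against TG the log2 fold change was -1.30 for CBFII-5.2 (edgeR adjusted p = 0.116) and -1.84 for CBFII-5.3 (edgeR adjusted p = 0.0669). The TMG libraries of CBFII-5.3 lay below all its TG libraries. All 14 log2 fold changes against TG were negative, with a median of -0.77 against -0.01 over all genes, but without TG replicate 1 those of CBFIIIa-6.1, CBFIIIa-6.2, CBFIIIa-D6, CBFIIIc-3.1 and CBFIIIc-B10 were positive (0.16 to 0.48) and CBFIVd-A22 was still the only member called. Set against CG, which both comparisons share, 5 members were called higher and 9 lower in TMG of 14 tested, where 56.6% of 73516 genes were called. The higher genes were the 3 IVd genes, CBFIVa-A2 and CBFIVb-D20, and the lower genes were every Ia, II, IIIa and IIIc gene. Their log2 fold changes ran between -6.45 for CBFIIIc-B10 and 3.37 for CBFIVa-A2, with a median of -2.92 against 0.03 over all genes, and no call was lost when a library was left out. CBFIVb-D21, which did not pass the filter here, was called lower in TMG without that filter (log2 fold change -2.54, edgeR adjusted p = 0.0211) and with DESeq2.

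**Figure D4:**
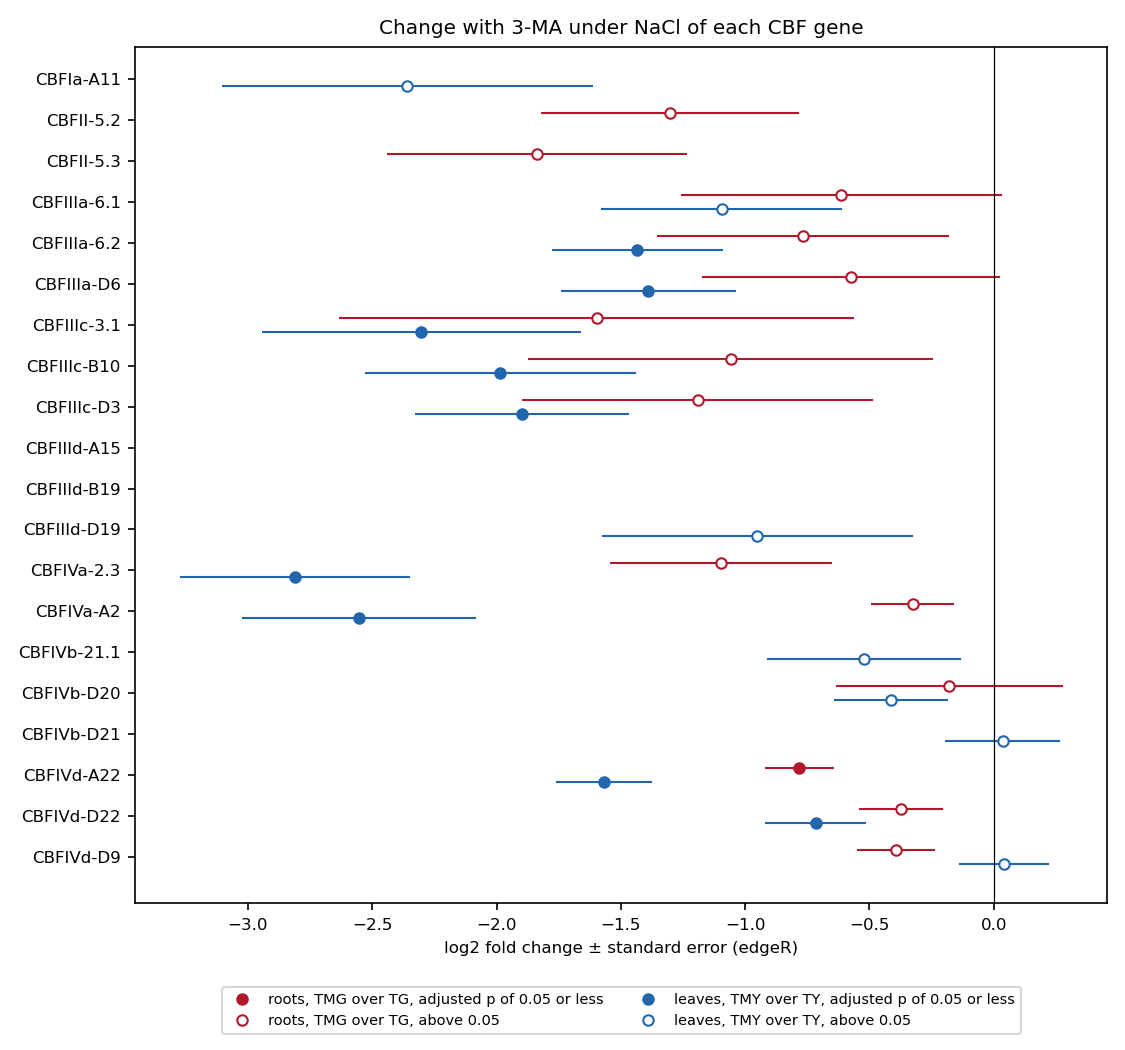
Log2 fold change of each CBF gene with 3-MA under NaCl in roots (TMG over TG, red, upper of each pair) and in leaves (TMY over TY, blue), with the standard error of the edgeR fit; filled points passed an adjusted p of 0.05. In roots CBFIVd-A22 is the called gene; in leaves 9 genes were called, all lower.

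In leaves 9 members were lower with 3-MA under NaCl. Of 16 members that passed the filter in TMY against TY, 9 were called lower and none higher, where 18.4% of 64867 genes were called (9.94% lower). The median log2 fold change was -1.41 over the members and 0.0047 over all genes. The 9 genes were the 3 IIIc genes, CBFIIIa-6.2, CBFIIIa-D6, both IVa genes, CBFIVd-A22 and CBFIVd-D22.

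CBFIVd-A22 had 28.9, 40.0 and 25.0 CPM in TMY, against 102, 87.5 and 99.0 CPM in TY (log2 fold change -1.57 ± 0.19, edgeR adjusted p = 0.0024). CBFIVa-A2 had 2.39, 5.05 and 2.61 CPM in TMY, against 10.1, 17.1 and 34.1 CPM in TY (log2 fold change -2.55 ± 0.47, edgeR adjusted p = 0.00944). CBFIVa-2.3 had 0.173, 0.799 and 0.428 CPM in TMY, against 3.70, 3.00 and 3.48 CPM in TY (log2 fold change -2.81 ± 0.46, edgeR adjusted p = 0.0064). In these 3 genes every TMY library was below every TY library, and the calls of CBFIVd-A22 and CBFIVa-2.3 held whichever library was left out, while that of CBFIVa-A2 was lost without TMY replicate 1 (edgeR adjusted p = 0.0503). CBFIVd-D22 had 19.2, 30.9 and 19.2 CPM in TMY (log2 fold change -0.72 ± 0.20, edgeR adjusted p = 0.0444), a call lost without any 1 of 5 of the 6 libraries (edgeR adjusted p up to 0.163) and with library size only (0.0974). CBFIVd-D9 was at the level of TY, with 47.6, 63.0 and 40.5 CPM in TMY, a log2 fold change of 0.04 ± 0.18. The IVb genes did not pass either, at 27.1, 33.3 and 22.5 CPM in TMY for CBFIVb-D20, 1.96, 2.49 and 2.54 CPM for CBFIVb-D21 and 0.951, 1.53 and 1.39 CPM for CBFIVb-21.1.

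Of the III genes, CBFIIIa-6.2 had 58.4, 60.05 and 31.1 CPM in TMY (log2 fold change -1.43 ± 0.34, edgeR adjusted p = 0.0247) and CBFIIIa-D6 had 26.5, 27.5 and 13.5 CPM (-1.39 ± 0.35, edgeR adjusted p = 0.0299). All TMY libraries of both were below all TY libraries. CBFIIIa-6.2 lost its call without any 1 of 4 of the 6 libraries (edgeR adjusted p up to 0.0772), and CBFIIIa-D6 without any 1 of 3 (up to 0.0902). CBFIIIa-6.1, with 31.3, 21.9 and 14.7 CPM in TMY, overlapped TY and was not called (edgeR adjusted p = 0.157). The IIIc genes had 1.10, 0.703 and 0.607 CPM (CBFIIIc-B10), 1.79, 1.09 and 0.714 CPM (CBFIIIc-3.1) and 2.88, 1.60 and 1.82 CPM (CBFIIIc-D3) in TMY, with log2 fold changes of -1.98, -2.30 and -1.90 and edgeR adjusted p of 0.0395, 0.0417 and 0.0203. The TMY and TY libraries of CBFIIIc-3.1 overlapped, with TMY replicate 1 above TY replicate 3, and those of CBFIIIc-B10 and CBFIIIc-D3 were apart. The calls of CBFIIIc-3.1 and CBFIIIc-B10 were lost without any 1 of 5 of the 6 libraries, the exception being TY replicate 3 (edgeR adjusted p up to 0.143 and up to 0.137), and with limma on log2(FPKM + 1) (adjusted p = 0.107 and 0.0949). That of CBFIIIc-D3 was lost without TY replicate 1 or TMY replicate 3 (edgeR adjusted p up to 0.0743). CBFIa-A11 had 2.19, 1.73 and 1.39 CPM in TMY and did not pass (edgeR adjusted p = 0.0622), and the II genes were at or below 0.202 CPM and were not tested. Leaving out 1 library lowered the count of called members to 3 without TY replicate 1, TMY replicate 1 or TMY replicate 3. The share called of all genes was then 8.95%, 7.82% and 10%, against 18.4% with all libraries. Without TY replicate 1 the 3 were CBFIVd-A22, CBFIVa-A2 and CBFIVa-2.3.

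Against control leaves, TMY gave 12 members lower and 1 higher of 18 tested, where 37.2% of 63980 genes were called, and the median log2 fold change was -1.73 over the members and 0.06 over all genes. CBFIVd-D9 was the higher one (log2 fold change 0.95 ± 0.25, edgeR adjusted p = 0.0177), and it lost its call without CY replicate 2 or CY replicate 3 (up to 0.0555). The 12 lower genes were every Ia, II, IIIa, IIIc and IVa gene and CBFIVd-A22, with log2 fold changes between -4.40 for CBFIa-A11 and -1.51 for CBFIVd-A22. The call of CBFIVd-A22 was lost without TMY replicate 1 (edgeR adjusted p = 0.0564). The IVd genes had different calls in these leaves: CBFIVd-D9 was higher than in CY, CBFIVd-A22 was lower, and CBFIVd-D22 had a log2 fold change of -0.16 ± 0.33 (edgeR adjusted p = 0.725).

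The change with 3-MA was also compared between tissues, as (TMG - TG) - (TMY - TY). CBFIVa-A2 was the only one of 18 tested members called, where 10.5% of 79864 genes were called, and the median difference was 0.59 over the members and -0.11 over all genes. Its difference was 2.15 ± 0.54 (log2, edgeR adjusted p = 0.0275), from a log2 fold change of -0.33 in roots and -2.55 in leaves. The call was lost without any 1 of 8 of the 12 libraries (edgeR adjusted p up to 0.0693), namely every TG and TMG library and TMY replicates 1 and 3. By edgeR, 4 of the 18 members had an unadjusted p under 0.05, where 20895 of 79864 genes did. For the members called lower in leaves and not in roots, the edgeR fit above showed no other difference between tissues. Limma on log2(FPKM + 1) also called that of CBFIVa-2.3 (1.35, adjusted p = 0.00165).

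Control roots and control leaves themselves differed in every member tested by the edgeR fit, though several of these calls were lost under other settings. Of 17 members that passed the filter in CG against CY, 5 were called higher in roots and 12 lower, where 65.4% of 71882 genes were called. The median log2 fold change was -1.62 over the members and 0.14 over all genes. The 5 were both II genes and the 3 IIIc genes. CBFII-5.2 and CBFII-5.3 were 23.2-fold and 22.8-fold higher in roots than in leaves (log2 fold changes 4.53 ± 0.25 and 4.51 ± 0.35, edgeR adjusted p = 1.6e-07 and 1.75e-06), and no library of one tissue overlapped the other. The IIIc genes were higher in roots by less, with log2 fold changes of 1.60, 0.73 and 0.88 for CBFIIIc-B10, CBFIIIc-3.1 and CBFIIIc-D3. The calls of CBFIIIc-3.1 and CBFIIIc-D3 were lost without CG replicate 2, among others (edgeR adjusted p up to 0.0745), and with all 6 groups in one fit (0.332 and 0.148). Lowest in roots relative to leaves were CBFIVa-A2 (log2 fold change -6.01 ± 0.48), CBFIVb-D20 (-4.70 ± 0.35) and CBFIVa-2.3 (-4.15 ± 0.62). Of the genes lower in roots the IIIa genes differed least, at -0.51 for CBFIIIa-6.1, -0.80 for CBFIIIa-6.2 and -1.55 for CBFIIIa-D6. The calls of CBFIIIa-6.1 and CBFIVb-D21 were lost without CG replicate 3, among others (edgeR adjusted p up to 0.104). CBFIIIa-6.1 and CBFIIIa-6.2 lost theirs with all 6 groups in one fit (edgeR adjusted p = 0.425 and 0.149). CBFIVb-D21 lost its call with library size only (edgeR adjusted p = 0.127) and with limma on log2(FPKM + 1) (adjusted p = 0.0721). With scaling by library size alone, which shifted the all-gene median log2 fold change by 0.59 in this comparison, CBFIIIa-6.1 turned to 0.07 and CBFIIIa-6.2 was no longer called, so the direction of CBFIIIa-6.1 between tissues rests on the scaling.

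The 3 IIIa genes, 1 copy each on 5A, 5B and 5D, fell unequally in roots. In roots CBFIIIa-6.2 made up 65.7%, 66.7% and 64.2% of their summed CPM per kb in TG, against 53.8%, 54.4% and 54.0% in CG. The 5B copy, CBFIIIa-6.1, made up 15.7%, 14.2% and 17.2% in TG, against 30.8%, 33.5% and 33.9% in CG. CBFIIIa-D6 made up 18.6%, 19.2% and 18.6% in TG, against 15.4%, 12.2% and 12.2% in CG. None of these shares overlapped between TG and CG, and TG replicate 1, which stood apart in level, did not stand apart in shares. No test was made, and these shares are a description. In TMG the shares were 63.9 ± 4.75%, 15.8 ± 3.56% and 20.3 ± 1.36% for CBFIIIa-6.2, CBFIIIa-6.1 and CBFIIIa-D6 (SD, n = 3). In leaves CBFIIIa-6.1 made up 18.5 ± 4.77% in TY and 26.1 ± 3.63% in CY, with overlapping libraries.

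**Figure D5:**
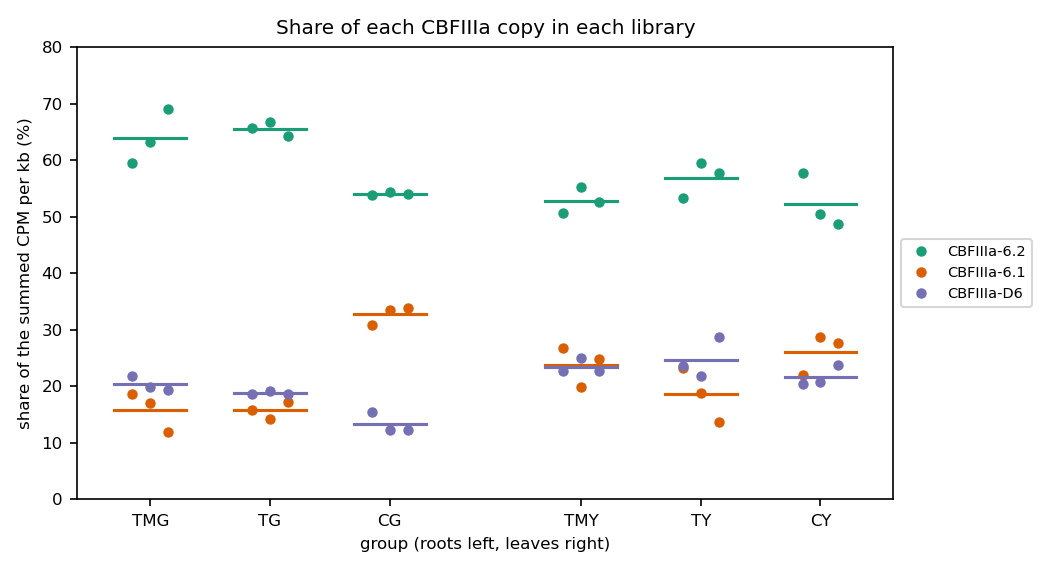
Share of each CBFIIIa copy in the summed CPM per kb of the 3 copies, for each library (points, in replicate order) with the mean of each group (line), roots at the left and leaves at the right. The share of CBFIIIa-6.1 (5B) is 14.2% to 17.2% in TG and 30.8% to 33.9% in CG, and the leaf groups overlap.

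The IIId genes were the lowest of the family in control roots and none passed the filter in a root comparison. In roots CBFIIId-D19 (TraesCS5D02G318100, 5D, 410952213 to 410953177) had 0.191, 0.214 and 0.291 CPM in TMG, 0.233, 0.219 and 0.0278 CPM in TG, and 0.0305, 0 and 0 CPM in CG. CBFIIId-A15 (TraesCS5B02G312100, 5B, 493673951 to 493674960) had 0, 0 and 0.0793 CPM in TMG, 0.155, 0 and 0 CPM in TG, and 0.122, 0 and 0.15 CPM in CG. In leaves CBFIIId-D19 had 0.346, 0.831 and 0.250 CPM in TMY, 0.360, 1.12 and 1.39 CPM in TY and 0.473, 0.331 and 2.44 CPM in CY. CBFIIId-A15 had 0.115, 0.0639 and 0.0714 CPM in TMY, 0.396, 0.0724 and 0.213 CPM in TY, and 1.42, 0.425 and 1.35 CPM in CY, with TY below CY in every library and no call (edgeR adjusted p = 0.0574). DESeq2 called CBFIIId-A15 lower in TY against CY (log2 fold change -2.18, adjusted p = 0.0363), as did edgeR with the replicate block (adjusted p = 0.0385). CBFIIId-B19 (TraesCS5B02G311900, 5B, 493480369 to 493481322) had counts in 10 of the 18 libraries, none of them a CG library, and at most 1.55 CPM, in CY replicate 3, where CBFIIId-D19 was also highest. The TMG and CG libraries of CBFIIId-D19 did not overlap. Without the filter on low counts it was called higher in TMG against CG (log2 fold change 4.01, edgeR adjusted p = 0.0124), as it was with DESeq2 (adjusted p = 0.0173), all 6 groups in one fit and limma. It had 1 CG library above 0, so the fitted size of that change depends on the prior count. Without the filter CBFIIId-A15 was called lower in TMY against CY (log2 fold change -3.48, edgeR adjusted p = 0.00439), and all 3 IIId genes were called lower in CG against CY. No other comparison between root groups gave a call of a IIId gene under the settings tried with all libraries.

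Other genes of the pathway were taken from fixed searches of the descriptions. The only regulator found by name was ICE41 (TraesCS3D02G434900), a bHLH protein of the ICE type, which averaged 0.0465 CPM or less in the root groups and fell in leaves to 0.682 ± 0.097 CPM in TY, against 2.02 ± 0.44 CPM in CY (log2 fold change -1.49 ± 0.35, edgeR adjusted p = 0.0182). A further 36 genes are described as CBF or DREB without a subgroup name. Of these, 7 were called higher and 6 lower of 21 tested in TG against CG, 1 higher and 2 lower of 21 in TY against CY, none higher and 2 lower of 17 in TMG against TG, and none higher and 5 lower of 18 in TMY against TY, where 35.6%, 23.3%, 20.2% and 18.4% of all genes tested were called. Their medians were -0.39, -0.46, -0.75 and -1.07. Among those called in TG against CG, the highest mean CPM over all 18 libraries belonged to C-repeat binding factor 10 on 5A (TraesCS5A02G311900), with 11.8 ± 13.9 CPM in TG and 96.5 ± 11.3 CPM in CG (log2 fold change -2.998 ± 0.80, edgeR adjusted p = 0.0199), and to 2 genes described as AP2 domain CBF protein. In roots alone other called genes of the list were higher than the last of these. Of these, TraesCS5D02G318800 fell to 3.90 ± 3.91 CPM in TG, against 47.5 ± 6.17 CPM in CG, and TraesCS5A02G310800 rose to 2.79 ± 1.04 CPM in TG, against 0.300 ± 0.057 CPM in CG.

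A list of cold-regulated genes held 22 genes described by words for cold regulation, cold response or cold acclimation, or as dehydrins. Dehydrins were listed whether or not their description named cold. CBF proteins are known to bind cold-regulated genes in the cold, and binding to the listed genes was not tested. Genes of the list moved in both directions in roots. In TG against CG 4 were called higher and 5 lower of 10 tested (median log2 fold change -0.80), and in TMG against TG 4 higher and 1 lower of 10 (median 1.35), where 35.6% and 20.2% of all genes tested were called. Apart from a gene described as cold regulated, those called higher in TMG against TG were dehydrin genes. The dehydrin gene WZY1-2 (TraesCS6D02G234700), for a protein that protects cells during dehydration, had 89.2 ± 15.3 CPM in TG and 452 ± 76.0 CPM in CG (log2 fold change -2.31 ± 0.20, edgeR adjusted p = 0.000164). A cold-responsive protein gene on 2A (TraesCS2A02G460600) fell with 3-MA in roots, to 2.88 ± 1.55 CPM in TMG, against 12.2 ± 3.12 CPM in TG (log2 fold change -2.08 ± 0.37, edgeR adjusted p = 0.0069), and was higher with 3-MA in leaves, with 95.8 ± 31.5 CPM in TMY and 12.95 ± 3.68 CPM in TY (2.95 ± 0.32, edgeR adjusted p = 0.00167). With 3-MA in roots a dehydrin gene (TraesCS5D02G379300) rose to 31.1 ± 7.66 CPM in TMG, against 2.08 ± 2.11 CPM in TG (log2 fold change 3.91 ± 0.59, edgeR adjusted p = 0.00357). In leaves NaCl lowered most of those tested, with 1 called higher and 9 lower of 13 in TY against CY (median -1.23), where 10.1% of all genes were called higher and 13.2% lower. The most abundant was the gene of cold-responsive protein WCOR15-2D (TraesCS2D02G425300), with 431 ± 66.2 CPM in TY and 1649 ± 413 CPM in CY (log2 fold change -1.87 ± 0.24, edgeR adjusted p = 0.00216). It fell further to 149.7 ± 84.6 CPM in TMY (log2 fold change to TY -1.47 ± 0.40, edgeR adjusted p = 0.0377), where 3 of 15 tested genes of the list were higher and 5 lower, against 8.44% and 9.94% of all genes.

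Over the 18 libraries, the genes whose log2(CPM + 1) followed that of CBFIIIa-6.2 most closely among 10338 described genes with a mean of 1 CPM or more were a NAC domain protein 2a-like gene (TraesCS5B02G480900, Pearson's r = 0.979), the WRKY transcription factor 33-3 gene (TraesCS6D02G136200, 0.969), a xyloglucan endotransglucosylase/hydrolase gene (TraesCS6D02G248500, 0.961), the WRKY80 gene (TraesCS6A02G146900, 0.95) and a serine/threonine-protein kinase gene (TraesCS1B02G323100, 0.94). These points share libraries, tissues and scaling, and the values are a description. NAC and WRKY proteins are transcription factors of plant stress responses, and the xyloglucan enzymes reshape cell walls.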

How the data were processed

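RNA of 18 wheat samples was sequenced as paired reads of 150 bp. The authors deposited 1 table of raw read counts and FPKM values per gene, with gene descriptions and transcription factor families; reads were mapped to the Chinese Spring genome (IWGSC), and the submitters' processing notes name HISAT2 2.0.5, and also Bowtie 0.12.2 and a mouse build, mm8. The counting program, its strand setting and its treatment of reads with several matches are not given in the sources used here. The table's 75 columns of the authors' own comparisons (group means, fold changes and p-values) were not used. The 3 libraries of a group are labelled biological replicates.

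Counts were analysed with edgeR 4.0.16 in R 4.3.3: filterByExpr, TMM factors and the quasi-likelihood test on the 2 groups compared, or on 12 libraries for the tissue interactions, with Benjamini-Hochberg adjustment over all genes tested and a call at an adjusted p of 0.05 or less. The standard error is the size of the log2 fold change divided by the square root of F. CPM per kb was used to compare genes. The FPKM values entered only limma 3.58.1 on log2(FPKM + 1), an alternative, as did DESeq2 1.42.0, RLE factors, library size only, other filters, all 6 groups in one fit, a replicate block and each library left out. The fits were also run on simulated counts in which most genes did not change, and no result given here rests on those runs. The rule for members used gene names alone, but this gene family and the lists were chosen with earlier results of these data known. Named genes were members with a mean of 1 CPM or more in a group, the 5 genes most like the most abundant member, and up to 3 called genes per list and comparison with the highest mean CPM. In addition, TraesCS2A02G460600 is given in leaves, where that rule does not name it.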

Additional observations from a re-analysis of the deposited data

Results flagged for a closer look

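In 5 cases the change of a CBF gene differed between roots and leaves by the edgeR test of the interaction. Under NaCl 4 of 20 tested members were called, where 11.1% of all genes were. With 3-MA under NaCl 1 of 18 was called, where 10.5% of all genes were. The NaCl call of CBFIIIc-D3 was lost without any 1 of 6 of the 12 libraries, and that of CBFIVd-A22 without either of 2. The 3-MA call of CBFIVa-A2 was lost without any 1 of 8 of the 12. Under NaCl the root change exceeded the leaf change by 3.42 (log2) for CBFIVa-A2 and by 1.83 for CBFIVd-A22, and all 3 TG libraries of both genes lay above all 3 CG libraries while the TY and CY libraries overlapped. The difference was -4.04 for CBFIIIc-B10, whose NaCl libraries lay below the control libraries in both tissues, and -3.07 for CBFIIIc-D3, whose TY and CY libraries overlapped. With 3-MA under NaCl the difference was 2.15 for CBFIVa-A2, with TMG libraries at 2.53 to 3.04 CPM and TG libraries at 3.11 to 3.77 CPM, and TMY libraries at 2.39 to 5.05 CPM and TY libraries at 10.1 to 34.1 CPM. Chlorophyll a-b binding protein genes were lower under NaCl in both tissues, and their part in these differences was not tested. With 3 libraries per group, single libraries were not tested for standing apart.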

How the results depend on the processing

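Over the settings that kept all libraries, 714 values of called members kept their direction and stayed past the threshold, 30 no longer passed, and 1 turned round: CBFIIIa-6.1 in CG against CY, 0.074 with library size only (edgeR adjusted p = 0.754). Members not called by edgeR passed in 39 further values. With 1 library left out, 405 values of called members stayed past the threshold and 75 did not, 25 of them in TMY against TY and 14 in TG against CG. In TMG against TG the count called lower, 1, was 3 with DESeq2, 2 with limma, 0 with all 6 groups in one fit and 0 at a log2 fold change of at least 1. Of all genes, 17.2%, 15.1%, 12.5% and 10.5% were then called in either direction, against 20.2% with the edgeR fit above. In TY against CY the count called higher, 2, was 1 with limma and 1 at the stricter fold, and the count called lower, 0, was 2 with DESeq2, 2 with no filter on low counts, 3 with all 6 groups and 1 with limma. The all-gene share there was 23.3% with the edgeR fit above. It was 17.6% with limma, 13.7% at the stricter fold, 19% with DESeq2, 16.4% with no filter and 24.1% with all 6 groups. In TMY against CY the count higher, 1, was 3 with library size only and 0 at the stricter fold, and in CG against CY the count higher, 5, was 3 with all 6 groups and 3 at the stricter fold. All-gene shares were 53.1% and 27.4% in TMY against CY (37.2% above), and 65.4% and 52.3% in CG against CY (65.4% above). For NaCl by tissue the count lower, 2, was 4 with all 6 groups and 5 with limma, and for 3-MA by tissue 2 were higher and 1 lower with DESeq2 and 3 higher with limma, against 1 and 0. All-gene shares were 12.3% and 19.5% for NaCl by tissue (11.1% above), and 12.8% and 15.2% for 3-MA by tissue (10.5% above). The causes were not tested.

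In no comparison, nor between TG and TY or TMG and TMY, did all samples with the same replicate number correlate above 0.1 in their deviations (lowest correlation of a pair -0.24 to 0.06), and at most 4 of 6 samples of 2 groups correlated best with their own number, so the numbers were not taken as pairs. With the replicate block, 2 genes were called lower in TMG against TG, 2 lower in TY against CY, 0 higher in TMY against CY and 4 lower for NaCl by tissue, and the other counts of members stayed within 1.5 times. Of all genes, 19.2%, 20.4%, 28.6% and 10.5% were called in these 4 comparisons with the block. Under the block CBFIVb-D20 in TG against CG (edgeR adjusted p = 0.102), CBFIVd-D22 in TMY against TY (0.0908) and CBFIVd-D9 in TMY against CY (0.0527) were not called, and CBFIIIa-6.1 (-2.63, 0.0331), CBFIIIc-3.1 (-3.48, 0.0454) and CBFIVd-D9 (1.34, 0.0442) were called for NaCl by tissue.

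Leaving out 1 library at a time gave 4 to 5 higher and 7 to 9 lower in TG against CG, 9 to 10 lower in TMG against CG, 1 to 3 lower in TMG against TG, 1 to 2 higher and 0 to 4 lower in TY against CY, 3 to 9 lower in TMY against TY, 0 to 1 higher and 12 to 13 lower in TMY against CY, 3 to 5 higher and 11 to 12 lower in CG against CY, 1 to 4 higher and 1 to 7 lower for NaCl by tissue, and 0 to 3 higher for 3-MA by tissue. Of all genes, 23% to 37.3% were then called in TG against CG and 49% to 54.7% in TMG against CG. The share was 9.8% to 22.5% in TMG against TG and 12.5% to 21.5% in TY against CY. It was 7.82% to 25.9% in TMY against TY and 24.5% to 36.9% in TMY against CY. In CG against CY it was 58.9% to 64.1%, for NaCl by tissue 6.5% to 11% and for 3-MA by tissue 5.65% to 15.8%.

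Library size only shifted the all-gene median log2 fold change by 0.23 in TG against CG, 0.26 in TMG against CG, 0.35 in TY against CY, 0.15 in TMY against TY, 0.53 in TMY against CY and 0.59 in CG against CY. The share of calls that were higher was then 69.9% (51.9% with TMM), 64.5% (49.6%), 75.8% (43.3%), 62.4% (45.9%), 76.2% (44.7%) and 71.8% (55.2%). For 3-MA by tissue that share was 46.4% with all 6 groups and 45.003% with limma, against 32.3%. Of 72 counts over the pathway lists under DESeq2 and library size only, 62 stayed within 1.5 times. In roots the IIId genes, at 0.291 CPM or less, did not pass the filter.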
